A study of Mus musculus with 4 samples.

Results

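The 47 genes described here encode the machinery that carries newly made proteins into the endoplasmic reticulum (ER), out of it towards the Golgi apparatus and back: the signal recognition particle (SRP) and its receptor, the Sec61 channel and its partners, the TRAP complex, the COPII and COPI coats, the cargo receptors of the ER and the KDEL receptors. They were taken by name, and all 47 were found among the 56980 genes listed. They were measured in mesenchymal stromal cells (MSCs) of the bone marrow of 4 male wild-type C57BL/6J mice from an in-house inbred colony, aged 14 weeks. From each mouse 100 cells were sorted that carried CD51 (an integrin chain) and PDGFRa (a growth factor receptor) and lacked CD45, Ter119, CD31 and Sca1, which mark blood cells, red cells, vessels and a further stromal subset, and 1 RNA-seq library was made from polyadenylated RNA after PCR amplification of full-length cDNA. The 4 libraries, called mice 1 to 4, form a single group, so the comparisons made are between genes within the same mouse and between mice. No control group and no second cell type were set beside them.

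Secreted and membrane proteins begin with a hydrophobic signal. As it leaves the ribosome, SRP binds it, slows translation and docks with the SRP receptor on the ER, where the Sec61 channel takes over the growing chain, helped by the TRAP complex. Folded cargo then leaves from ER exit sites. The small GTPase Sar1 recruits Sec23 and Sec24, which form the inner COPII coat and pick cargo, and Sec13 and Sec31 build the outer cage. COPI vesicles run the other way and bring escaped ER proteins and cargo receptors back, and the KDEL receptors are the receptors for soluble ER chaperones on that route. Cells that lay down bone and marrow matrix lean heavily on this system because procollagen is a very large and abundant cargo, and inherited defects of SEC23A and SEC24D are known for skeletal disease.

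The libraries held between 22738604 and 43545349 counts on genes, with between 16109 and 18907 genes detected. Levels are given as TPM, a unit corrected for gene length and computed from the deposited counts by dividing by the length of each gene's merged exons and scaling each library to 1000000, so that levels of different genes can be compared per length. The sort label was checked against marker genes. Itgav (CD51) was present at 12.9 to 18.1 TPM and Pdgfra at 30.7 to 48.2 TPM, while Ptprc (CD45) had 2, 2, 0 and 50 counts and Pecam1 (CD31) 13, 11, 5 and 14 counts in mice 1 to 4. Ly6a (Sca-1), also gated against, had 1, 120, 0 and 144 counts, so it was read mainly in mice 2 and 4. Red cells (Ter119) were gated against too, but erythroid transcripts were read, with 5 genes given below summing to 35.04 to 4885 TPM. The osteoblast genes Bglap, Ibsp, Sp7 and Alpl were high, with a summed level of 77792 to 168024 TPM. Of plasma cell markers, a secretory blood cell type, Mzb1, Prdm1 and Tnfrsf17 were at 0 in every library, and of the rest of that list Xbp1, which is not limited to plasma cells, made up nearly all of a list sum of 199 to 416 TPM. In such bulk samples a lower level can mean fewer cells of a type or less RNA per cell, and these cannot be told apart. With 100 cells amplified by PCR, counting errors below cover counting only.

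Nearly the whole set was expressed. A median TPM above 1 over the 4 mice, the cutoff the study used, was reached by 46 of 47 genes, where 22.9% of all genes with a length and 44.2% of protein-coding genes reached it. A TPM above 1 in every mouse was reached by 45 genes, against 15.4% of all and 30.1% of protein-coding genes. The 2 that missed it were Sec31b, with no count in any mouse, and Sec61a2, which fell below 1 TPM in mouse 4. The levels were also high within the expressed genes. The median over the 47 genes of their median TPM was 92.7, beside 8.35 over all expressed genes and 9.86 over expressed protein-coding genes. A median above 100 TPM was reached by 23 genes, a level that 1.9% of all genes and 4.11% of protein-coding genes reached, 18 lay between 10 and 100 TPM and 5 between 1 and 10 TPM. The highest medians belonged to Sec61b (901 TPM), Kdelr2 (901 TPM), Ssr2 (871 TPM), Kdelr3 (744 TPM) and Surf4 (501 TPM), and the lowest detected ones to Srp54a (4.39 TPM), Sec24a (6.71 TPM), Sec24b (6.87 TPM) and Sec61a2 (9.48 TPM).

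**Figure D1:**
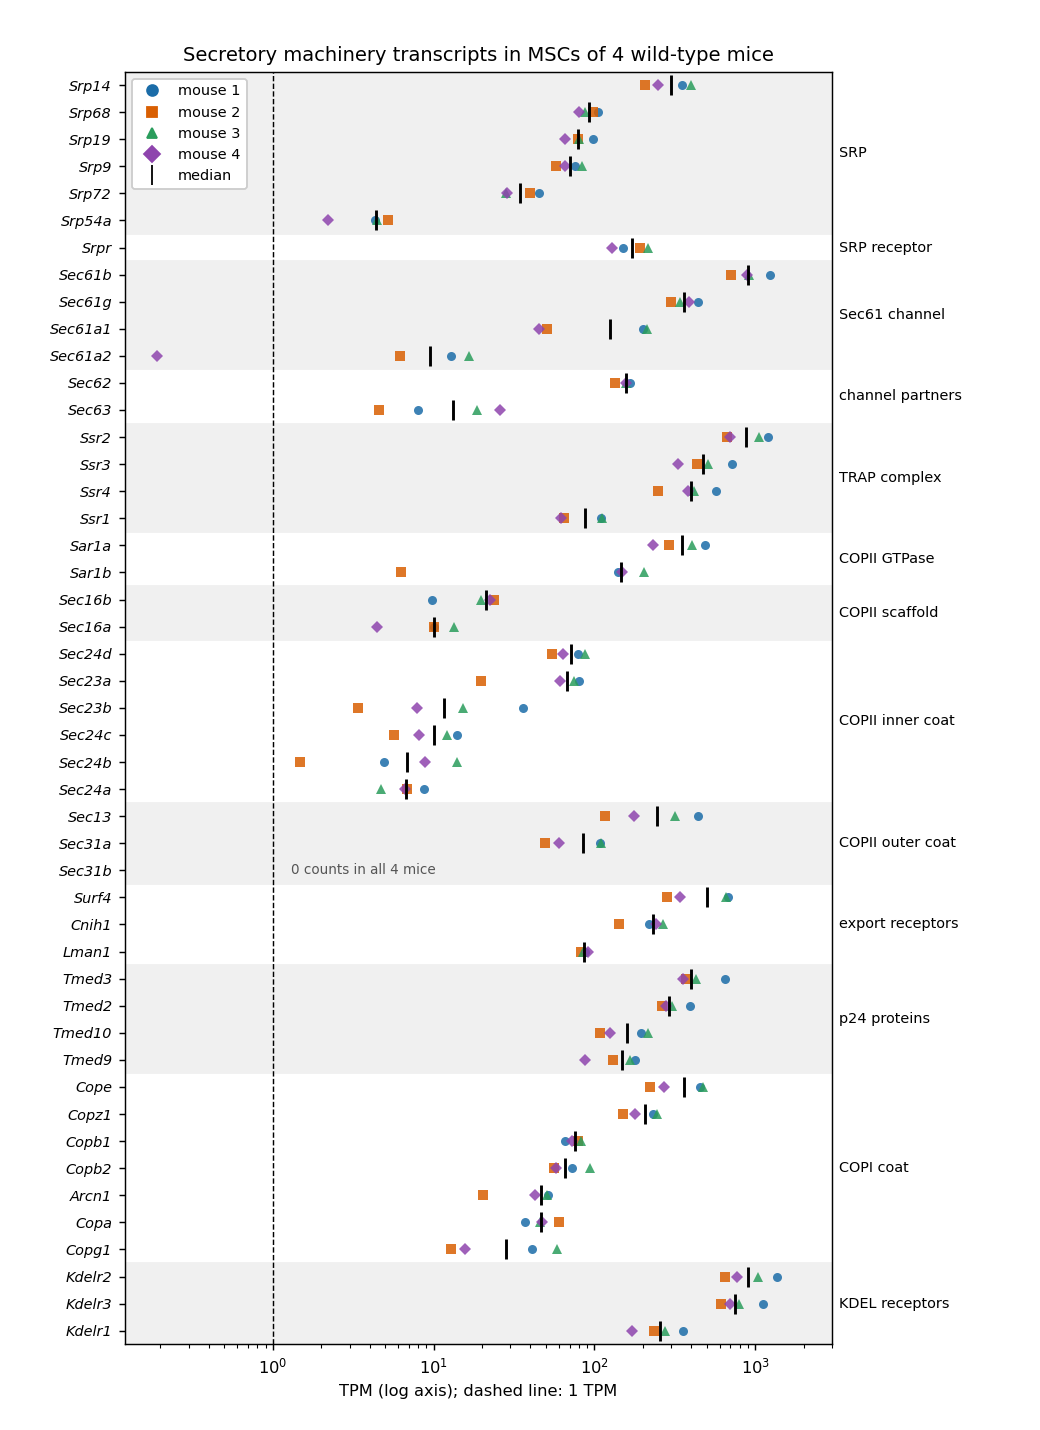
TPM of the 47 genes in each of the 4 mice on a log axis, grouped by role, with 1 point per mouse, a bar at the median and a dashed line at 1 TPM. Sec31b has no count, Sec61b, Kdelr2 and Ssr2 have the highest medians (901, 901 and 871 TPM), and the points of Sar1b, Sec61a2, Sec23b and Sec24b are the most widely spread.

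SRP recognizes the signal. Its summed level over the 6 genes was 676, 486, 679.9 and 492 TPM in mice 1, 2, 3 and 4. Srp14, which with Srp9 forms the domain that pauses translation, was the highest, at 349, 207, 397 and 249.6 TPM, above all other SRP genes in every mouse. Srp9 held 7393, 3562, 7972 and 3776 counts, or 75.8, 57.8, 83.3 and 65.9 TPM, and 14.1% of its exonic bases are shared with Gm17968, an annotated pseudogene on the opposite strand that held 0, 0, 0 and 0 counts. Srp68 and Srp72, the pair of large proteins on the SRP RNA, were at 105, 98.3, 87.03 and 79.8 TPM and at 45.2, 39.9999, 28.2 and 28.6 TPM. Srp19, which helps SRP54 to join the RNA, was at 97.4, 78.4, 79.9 and 65.5 TPM. The coefficient of variation (CV) between mice of these 3 genes was 12.05%, 23.97% and 16.3%. Srp54a (ENSMUSG00000073079, chr12:55080262-55115367, plus strand, GRCm38), the GTPase that binds the signal itself, was the lowest detected gene of the set, with 406, 306, 410 and 121 counts, or 4.33, 5.17, 4.46 and 2.20 TPM, and was 80.4, 40.003, 89.1 and 114-fold below Srp14 in mice 1 to 4. Without a length the median ratio of the highest to the lowest SRP gene was 19.1 in place of 84.8. The Srp54a value is uncertain, because 80.9% of the longest Srp54a transcript is near-identical in Srp54b or Srp54c and read pairs that fit more than 1 gene were not counted. Srp54c held 747, 294, 342 and 124 counts, or 11.7, 7.26, 5.43 and 3.29 TPM, and Srp54b 0, 0, 2 and 0 counts. Srp54c, a further SRP54 copy, was thus above Srp54a in TPM in every mouse, though below it in counts in mice 2 and 3. Srpr, the receptor subunit that docks SRP, held 8886, 7181, 12524 and 4491 counts, or 150.1, 192, 215 and 129 TPM, and 42.9% of its transcript is near-identical to 1 other gene.

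The Sec61 channel is the pore through which chains enter the ER, and its genes differed widely in level. Sec61b, a small single-pass subunit, held 27505, 10032, 20137 and 11636 counts, or 1230.0, 709.5, 917 and 886 TPM, and Sec61g, the other small subunit, 18968, 8229, 14399 and 9871 counts, or 438, 300.2, 338 and 388 TPM, both high in every mouse. Sec61a1, which forms the pore, was read at 23592, 3772, 24509 and 3143 counts, or 199, 50.4, 211 and 45.2 TPM, so that mice 1 and 3 were above mice 2 and 4. The second pore gene, Sec61a2, was lower in every mouse and all but missing in mouse 4, with 1027, 315, 1316 and 9 counts, or 12.8, 6.19, 16.7 and 0.190 TPM, and here too mice 1 and 3 were the higher pair. Sec61a1 made up 93.8 ± 4.37% (SD, n = 4) of the summed TPM of both pore genes. Of the exonic bases of Sec61a2, 19.9% are shared with Nudt5 on the opposite strand, which held 1191, 466, 1848 and 1007 counts. Counting used no strand, so reads in that stretch cannot be assigned to one of them. The highest subunit, Sec61b, exceeded the lowest, Sec61a2, 96.3, 115, 55.04 and 4651-fold in mice 1 to 4. The median of these ratios, 105, was 29.3 without a length and 10.1 when Sec61a2 dropped out because at least 10 counts were required in every library. Sec62 and Sec63 join the channel for chains that enter after translation. Sec62 was even, with 12686, 6469, 11747 and 7008 counts, or 166, 134, 157 and 156 TPM, and a CV of 8.90%. Sec63, whose J domain calls in the chaperone BiP, held 1228, 449, 2809 and 2338 counts, or 7.94, 4.59, 18.5 and 25.7 TPM, and, unlike most of the set, was highest in mouse 4.

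The TRAP complex sits beside the channel and helps chains with weak signals to enter. All 4 of its genes were well above the cutoff in every mouse, with a sum of 2589.8, 1410.1, 2092 and 1469 TPM. Ssr2 was highest, with 39101, 13798, 33827 and 13340 counts, or 1192, 665, 1050.2 and 693 TPM, then Ssr3 at 720.4, 432, 511 and 333 TPM and Ssr4 at 568, 248, 418 and 381 TPM. Ssr1, the alpha subunit, was lowest at 109, 65.02, 112 and 62.2 TPM, 10.9, 10.2, 9.42 and 11.1-fold below Ssr2 in mice 1, 2, 3 and 4. The order Ssr2, Ssr3, Ssr1 held in each mouse, but Ssr4 was above Ssr3 in mouse 4 only. Without a length the median ratio of the highest to the lowest TRAP gene was 2.39 in place of 10.6.

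Export from the ER starts with Sar1. Sar1a held 31856, 12171, 26275 and 8881 counts, or 484, 293, 407 and 229.8 TPM, and Sar1b (ENSMUSG00000020386, chr11:51763687-51791925, plus strand) held 3113, 88, 4403 and 1937 counts, or 141, 6.30, 203 and 149 TPM, so Sar1b was below Sar1a in every mouse and far lower in mouse 2 than in the others. The Sar1a minus Sar1b difference within a mouse was 2.18 ± 2.15 on the log2(TPM + 1) scale (mean ± SD, n = 4), positive in 4 of 4 mice but about as large as its SD, and leaving out mouse 2 lowered it to 1.13. The exit site scaffolds had lower medians than both GTPases, although in mouse 2 Sar1b was below both of them. Sec16a held 1616, 1020, 2138 and 422 counts, or 9.996, 9.98, 13.5 and 4.44 TPM, and Sec16b, the shorter paralogue, 932, 1436, 1830 and 1257 counts, or 9.79, 23.9, 19.6 and 22.5 TPM, with a difference of 0.94 ± 0.92 that was positive in 3 of 4 mice. In mouse 1 both scaffolds were nearly equal, and in mouse 4 Sec16b was clearly higher.

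In the inner coat, 1 paralogue of each family was the higher one in every mouse. Sec24 proteins are the cargo adaptors of COPII. Sec24d (ENSMUSG00000039234, chr3:123267455-123365641, plus strand) held 8792, 3835, 9493 and 4142 counts, or 79.01, 54.5, 86.9 and 63.4 TPM, and was above Sec24a, Sec24b and Sec24c in every mouse, with no overlap between the ranges. It made up 75.1 ± 3.07% (SD, n = 4) of the summed Sec24 TPM. Sec24a held 1639, 809, 872 and 731 counts, or 8.72, 6.81, 4.72 and 6.62 TPM, Sec24b held 519, 99, 1463 and 550 counts, or 4.90, 1.48, 14.1 and 8.84 TPM, and Sec24c held 1548, 396, 1314 and 530 counts, or 13.98, 5.66, 12.1 and 8.15 TPM, so these 3 lay between 1.48 and 14.1 TPM. Sec24d exceeded Sec24a by 3.22 ± 0.49, Sec24b by 3.38 ± 0.92 and Sec24c by 2.76 ± 0.26 in log2(TPM + 1), and the ratios of the medians were 10.6, 10.4 and 7.04. Among the minor 3, the differences were within their spread: 0.46 ± 0.60 for Sec24c minus Sec24a, 0.62 ± 0.89 for Sec24c minus Sec24b and -0.15 ± 1.32 for Sec24b minus Sec24a, which changed sign when mouse 1 or mouse 2 was left out (0.04 and 0.35). Sec23 is the GTPase activator that completes the inner coat. Sec23a (ENSMUSG00000020986, chr12:58958383-59012017, minus strand) held 6844, 1057, 6264 and 3035 counts, or 80.4, 19.6, 74.9 and 60.7 TPM, and Sec23b 4001, 238, 1668 and 514 counts, or 36.1, 3.39, 15.3 and 7.89 TPM, with Sec23a higher by 2.09 ± 0.69 and higher in 4 of 4 mice, although the ranges over mice overlapped. Its share of the Sec23 TPM was 81.4 ± 8.59%. Sec23b had the widest spread of the set, with a CV of 92.3%, with mouse 1 high and mouse 2 low. Sec23a was also lowest in mouse 2.

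The outer cage was carried by Sec13 and Sec31a. Sec13, also a part of the nuclear pore, was at 443, 117, 315 and 177 TPM, and Sec31a held 15118, 4295, 15021 and 4883 counts, or 109, 48.97, 110.3 and 59.9 TPM, with Sec13 the higher in every mouse and mice 1 and 3 above mice 2 and 4 for both. Sec31b (ENSMUSG00000051984, chr19:44516957-44545864, minus strand) had 0 counts in all 4 libraries. With 3 counts as the limit that a count of 0 allows, its level was below 0.0432 to 0.0735 TPM depending on the library, and Sec31a was at least 717-fold higher than that limit in the library with the lowest ratio.

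Receptors that load cargo were mostly high. Surf4, which exports soluble secreted proteins, held 39068, 10298, 37379 and 11621 counts, or 677, 282, 659 and 343 TPM, and was the fifth highest gene of the set. Cnih1, a cornichon that carries growth factor precursors, held 6261, 2554, 7491 and 4029 counts, or 219, 141, 267 and 240.2 TPM, highest in mouse 3. Lman1, the lectin that exports coagulation factors, was the steadiest gene, at 87.3, 82.01, 85.4 and 91.4 TPM and a CV of 4.51%. The p24 proteins cycle between ER and Golgi and sort cargo in both directions, and all 4 listed ones were high. Tmed3 was at 650.3, 371, 430.1 and 353 TPM. Tmed2 held 17388, 7430, 13240 and 7309 counts, or 391, 264, 303 and 279.9 TPM, Tmed10 19976, 7013, 21619 and 7507 counts, or 195, 108.5, 215 and 125 TPM, and Tmed9 10872, 5015, 9826 and 3090 counts, or 179.7, 131, 165 and 86.9 TPM. Their order was Tmed3, Tmed2, Tmed10 and Tmed9 by median. The ranges over mice overlapped for Tmed3 and Tmed2 and for Tmed10 and Tmed9. Tmed3 was above Tmed2 in every mouse, whereas Tmed9 was above Tmed10 in mouse 2. Near-identical stretches elsewhere cover 29.2% of the longest Tmed2 transcript and 6.66% of that of Tmed9.

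COPI is a coat of 7 subunits that are recruited together, yet their levels spanned a wide range. The ratio of the highest to the lowest was 12.3, 17.4, 10.3 and 17.2 in mice 1 to 4, with Cope, the epsilon subunit, highest in each. Their median of 14.7 was 8.74 with the length of the longest transcript and 4.79 without a length, so the range depends on the length correction. Cope was at 451, 222, 471 and 269 TPM and Copz1, the zeta subunit, held 14940, 6171, 15390 and 6760 counts, or 232, 151, 243 and 179 TPM, both above every other subunit. Copb1 and Copb2, the beta and beta-prime subunits, were at 65.95, 78.6, 82.5 and 72.4 TPM and at 72.8, 56.4, 93.9 and 57.7 TPM. Copa, the alpha subunit that reads retrieval signals, held 6098, 6305, 7423 and 4584 counts, or 36.8, 60.1, 45.6 and 47.1 TPM, and was highest in mouse 2, unlike most of the set. Arcn1, the delta subunit, held 13532, 3377, 13135 and 6553 counts, or 51.6, 20.4, 50.96 and 42.5 TPM, but its merged exons are much longer than its longest transcript, whose length would raise its median from 46.7 to 134 TPM, and 45.01% of that transcript is near-identical to other genes. Copg1, the gamma subunit, was the lowest by median and the most variable, with 7940, 1563, 11146 and 1788 counts, or 40.99, 12.8, 58.6 and 15.7 TPM, and its paralogue Copg2 held 790, 0, 203 and 131 counts, or 8.77, 0, 2.29 and 2.48 TPM, which gave a difference of 3.08 ± 1.05 in favor of Copg1, in 4 of 4 mice. Copz2, the paralogue of Copz1, held 11139, 2562, 5295 and 3555 counts, or 287, 104, 139 and 156 TPM, and the Copz1 minus Copz2 difference of 0.31 ± 0.48 was smaller than its SD, with Copz2 the higher in mouse 1. Both zeta genes were thus read at similar levels, whereas Copg1 was the higher gamma gene in every mouse.

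The KDEL receptors, which return chaperones such as BiP to the ER, made up one of the highest groups, with 2838, 1495, 2103 and 1633 TPM in sum. Kdelr2 (ENSMUSG00000079111, chr5:143403838-143421901, plus strand) held 44133, 13131, 32727 and 14476 counts, or 1372, 645, 1036 and 766 TPM, Kdelr3 27592, 9649, 19304 and 10158 counts, or 1112, 615, 792 and 697 TPM, and Kdelr1 11702, 4896, 8915 and 3308 counts, or 355, 235, 275 and 171 TPM, in the same order in every mouse. Their mean shares of the sum were 46.9%, 40.1% and 12.9%. Kdelr2 exceeded Kdelr1 by 1.87 ± 0.30 and Kdelr3 exceeded Kdelr1 by 1.64 ± 0.27 in log2(TPM + 1), both with no overlap of the ranges, while Kdelr2 exceeded Kdelr3 by 0.22 ± 0.15, a small difference with overlapping ranges.

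**Figure D2:**
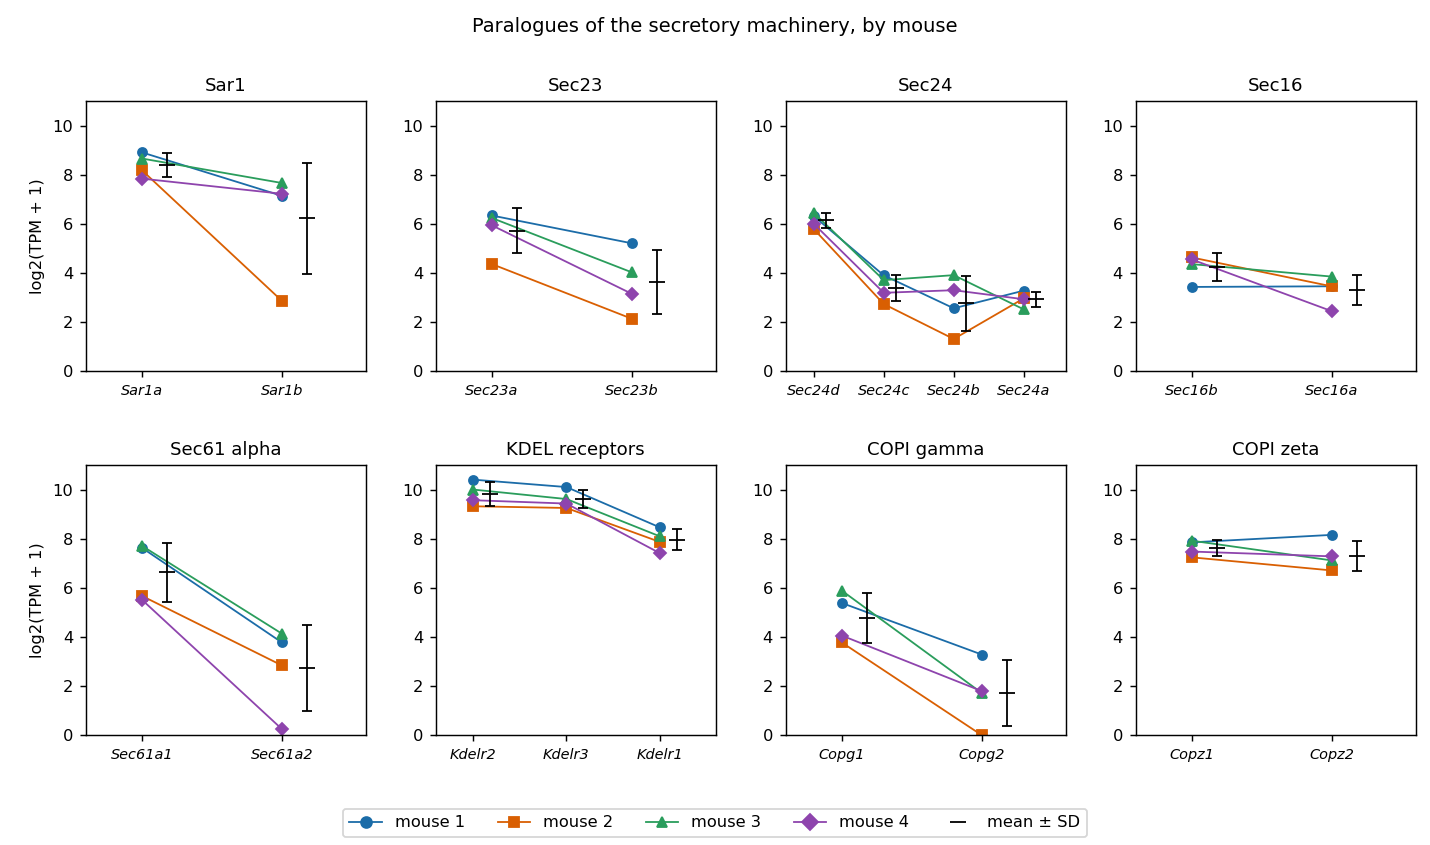
Levels in log2(TPM + 1) of 8 paralogue families in the 4 mice, with the points of a mouse joined by a line and the mean ± SD beside them. Sec24d lies above the other Sec24 genes and Kdelr1 below the other KDEL receptors in all 4 mice, while Sec24a, Sec24b and Sec24c cross.

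Differences between paralogues were tested with a two-sided exact permutation test that flips the sign of the difference in each mouse. With 4 mice the smallest p this test can give is 0.125, so no pair could reach 0.05. Of 16 pairs, the first gene was the higher in 4 of 4 mice in 11, and each of these had p = 0.125, or 0.182 after Benjamini-Hochberg adjustment over the 16 (exact permutation test). The other 5 were Sec16b over Sec16a (p = 0.25, adjusted 0.308, exact permutation test), Sec24c over Sec24a (p = 0.25, adjusted 0.308, exact permutation test), Copz1 over Copz2 (p = 0.375, adjusted 0.429, exact permutation test), Sec24c over Sec24b (p = 0.5, adjusted 0.533, exact permutation test) and Sec24b over Sec24a (p = 0.875, exact permutation test). The mean difference was larger than its SD in 12 pairs. Sec61a1 exceeded Sec61a2 by 3.89 ± 1.02 and Sec31a exceeded Sec31b by 6.29 ± 0.59, the latter a fitted value that depends on the pseudocount because Sec31b had no counts.

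Sequence near the start sites was read for a motif shared by genes of this kind. RefSeq promoter windows (GRCm38.p6, from 250 bases before to 50 after the start) were at hand for 39 of the 47 genes, and 13 motifs, chosen after the levels had been seen, were searched on both strands. The 8-base TGACGTGG, known as the unfolded protein response element and read as CCACGTCA on the other strand, was present in 6 of the 39 genes (15.4%), compared with 0.714% of all 27025 genes with a window, 1.08% of the 8044 expressed ones and 1.52% of the 3939 with a median above 10 TPM. The 6 stretches are shown because they mark which paralogues carried the motif. Each is 30 bases, 5′ to 3′ on the strand of the gene, in lower case with the motif or its reverse complement in capitals.
Sec24d, chr3:123267459-123267488, plus strand: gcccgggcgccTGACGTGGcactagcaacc
Sec23a, chr12:59011993-59012022, minus strand: ctcctccccttTGACGTGGcagaggcggca
Sec16b, chr1:157506741-157506770, plus strand: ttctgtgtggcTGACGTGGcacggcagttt
Copb1, chr7:114254690-114254719, minus strand: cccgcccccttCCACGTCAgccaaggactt
Copb2, chr9:98563713-98563742, plus strand: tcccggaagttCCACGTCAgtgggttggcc
Kdelr3, chr15:79516367-79516396, plus strand: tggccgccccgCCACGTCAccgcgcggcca

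Counting the RefSeq start base as 1, the motif lay at -26 to -19 in Sec24d, at 7 to 14 in Sec23a, at -44 to -37 in Sec16b, at -28 to -21 in Copb1, at -7 to 1 in Copb2 and at -30 to -23 in Kdelr3. Gene coordinates in this text come from another annotation, GENCODE. Those of Sec24d, Sec16b, Copb1 and Copb2 begin before the motif, which there lies within the gene. Sec24d, Sec23a and Sec16b were the gene of the higher median in their families, and the windows of Sec24a, Sec24b, Sec24c, Sec23b and Sec16a did not hold these letters. Sar1a (349.5 TPM) and Sec31a (84.5 TPM) were also the gene of the higher median in their families, and neither their windows nor those of Sar1b and Sec31b held them. For the KDEL receptors the motif was in the window of Kdelr3 and not in that of Kdelr1, and Kdelr2 has no window here. The 9-base TGACGTGGC, which contains it, was in the windows of Sec24d, Sec23a, Sec16b and Kdelr3 (10.3%), compared with 0.361% of expressed genes. All of them are among the 6 genes with TGACGTGG, so this share is no separate observation. Shorter parts were also searched. TGACGTG was in 17.9% of the 39 and 3.51% of expressed genes, and ACGTGG in 48.7% and 13.8%. TGACGTGG contains both, and of the 39 genes only Srpr held TGACGTG without TGACGTGG. CGTGGC was in 46.2% and 25.6%, and CGTGG in 64.1% and 53.1%. ACGTGG was in the windows of Sec24d, Sec23a, Sec16b, Sar1a and Sec31a, but also of the lower Sec24b and Sec24c. The windows of Sec24a, Sec23b and Sec16a lacked it. Holding TGACGTGG did not go with a high level over the set. The 6 genes with it had a median of 69.5 TPM and the 33 without it 148 TPM. Of 60 other pathway genes with a window, Arf1, Gbf1 and Stx5a held it. Both forms of the ER stress element searched, ERSE and ERSE-II, were in none of the 39 windows and in 0.162% and 0.112% of the expressed genes. The cAMP response element TGACGTCA was in that of Cope alone (2.56%, beside 3.62% of expressed genes). Common promoter letters differed less between these genes and the rest than TGACGTGG did. The GC box GGGCGG was in 69.2% of the 39 and 70.5% of expressed genes, CCAAT in 35.9% and 42.7%, CGGAAG in 48.7% and 37.9%, and TATAAA in 2.56% and 8.83%. These matches describe letters in a window and not bound sites.

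Spread between mice was far above counting error. With 1 library of 100 amplified cells per mouse, differences between animals cannot be told apart from those of sampling cells and of amplification. The CV of the 46 detected genes ranged from 4.51% (Lman1) to 92.3% (Sec23b) with a median of 30.7%, where counting alone gives a median of 1.25%. Below 100 TPM most of these genes had a CV under the median of all genes in their class of mean TPM. All 6 with a mean from 1 to 10 TPM were below the median CV of that class (89.6%), and 13 of 17 from 10 to 100 TPM were below theirs (42.4%). The class median fell as the level rose, and level was not matched within a class. The 6 genes had means from 4.04 to 9.97 TPM, with none near the lower end of their class. A CV below the class median thus does not mark these genes as steady for their level, which was not tested. Above 100 TPM, 17 of 23 lay above the class median of 23.5%, and the median CV of those 23 genes was 29.8%. The 5 most variable genes were Sec23b (92.3%), Sec61a2 (81.1%), Sec24b (73.9%), Sec61a1 (71.9%) and Sec63 (68.4%). After Lman1, the steadiest were Sec62 (8.90%), Copb1 (9.70%) and Srp68 (12.05%).

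**Figure D3:**
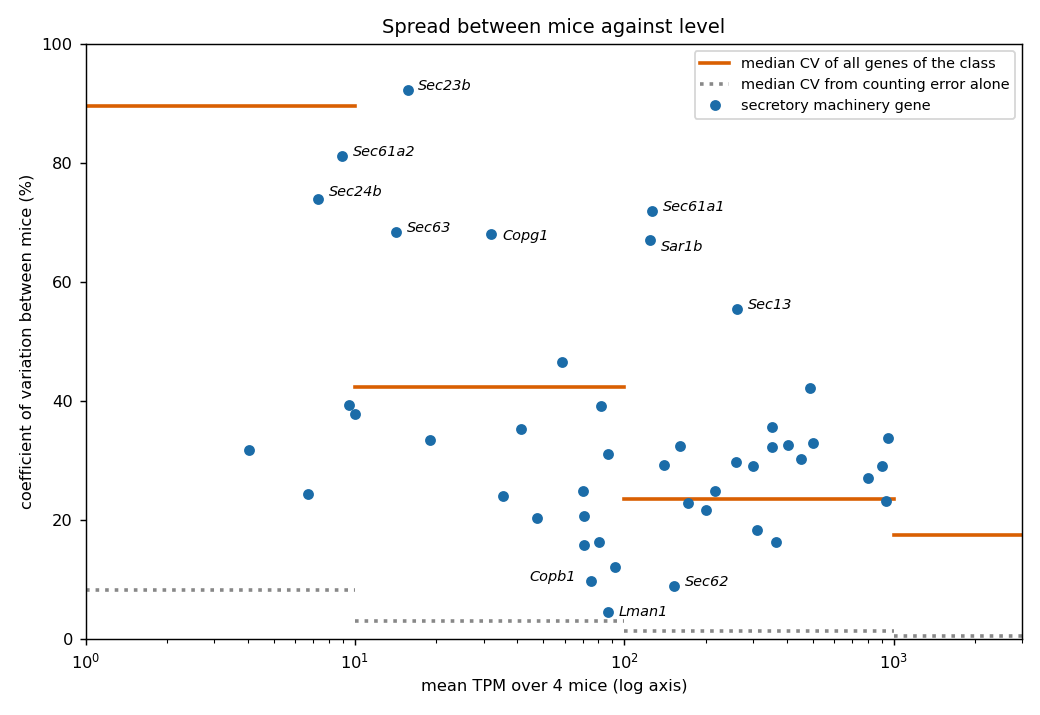
Coefficient of variation of TPM over the 4 mice (percent) against mean TPM (log axis) for the detected secretory genes, with the median of all genes in each class of mean TPM as a solid line and the CV that counting error alone gives as a dotted one. Lman1 is lowest at 4.51% and Sec23b highest at 92.3%, and 25 of the 46 genes lie below the median of their class. Level was not matched within a class.

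Many of these genes were high or low in the same mice. Of the 46 detected genes, 23 were highest in mouse 1 and 18 in mouse 3, while 28 were lowest in mouse 2 and 13 in mouse 4. Among 5601 other genes with a mean TPM from 10 to 2000, 27.03% were highest in mouse 1 and 32.4% in mouse 3, while 32.99% were lowest in mouse 2 and 33.3% in mouse 4, beside 50%, 39.1%, 60.9% and 28.3% of the secretory genes. The share lowest in mouse 4 was thus below that of the other genes. The summed level of the 47 genes was 13078, 7359.7, 11195 and 8225 TPM in mice 1, 2, 3 and 4. The median deviation of a gene from its own mean over mice, in log2(TPM + 1), was 0.37, -0.35, 0.29 and -0.23, beside 0.08, -0.04, 0.22 and -0.13 over the other genes. With TMM factors the medians of the 46 genes were 0.38, -0.33, 0.17 and -0.15, and with a common upper quartile 0.31, -0.32, 0.10 and -0.02, so mouse 1 stayed above and mouse 2 below the mean under all 3 scalings, and mice 3 and 4 moved closer to it. Over the other genes the medians were 0.09, -0.02, 0.11 and -0.04 with TMM factors and 0.02, -0.01, 0.04 and 0.09 with the upper quartile. The share highest in mouse 3 was 23.9% beside 23.6% of the other genes with TMM factors. With the upper quartile it was 19.6% beside 19.1%, so the higher share in mouse 3 was seen with TPM only. The shares highest in mouse 1 and lowest in mouse 2 stayed above those of the other genes. Mouse 2 was the lowest library for Sar1b, Sec23a, Sec23b, Sec24b, Sec13, Surf4 and Copg1, but the highest for Copa, Sec16b and Srp54a.

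Other measures also differed between the mice. Mice 1 and 3 had the deeper libraries and mouse 2 the fewest genes detected. The 5 erythroid genes Hba-a1, Hba-a2, Hbb-bs, Hbb-bt and Alas2 summed to 4885, 35.04, 1669.8 and 351 TPM, in the order mouse 1, mouse 3, mouse 4 and mouse 2, which is also the order of the summed secretory genes, and Alas2 was at 0 in mice 2 and 4. The osteoblast genes Sp7, at 339, 158, 255 and 151 TPM, and Alpl, at 892, 549.7, 963 and 573 TPM, were higher in mice 1 and 3. The other osteoblast genes had another order, with Ibsp at 11147, 13101, 20907 and 10569.6 TPM and Bglap (osteocalcin) at 96604, 119827, 55668 and 156730.0 TPM. Of the niche genes, Cxcl12, the chemokine of marrow niche cells, was at 983, 4329, 2224 and 1079 TPM, Lepr at 31.9, 120.2, 44.5 and 64.8 TPM, Foxc1 at 16.8, 44.7, 20.6 and 25.3 TPM and Ebf3 at 1.03, 27.3, 6.87 and 12.9 TPM, all highest in mouse 2 and lowest in mouse 1. Prrx1, at 19.4, 10.6, 17.95 and 12.02 TPM, was higher in mice 1 and 3. Macrophage markers Adgre1, Csf1r and C1qa were at 0 in all 4 libraries, with a list sum of 0 to 6.63 TPM, as were the endothelial markers Cdh5 and Kdr. The neutrophil list summed to 4.09 to 30.7 TPM. Of the chondrocyte list, Col11a2 alone held nearly all of 219 to 352 TPM. The part of depth and of other cell types in the order of the mice was not tested.

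**Figure D4:**
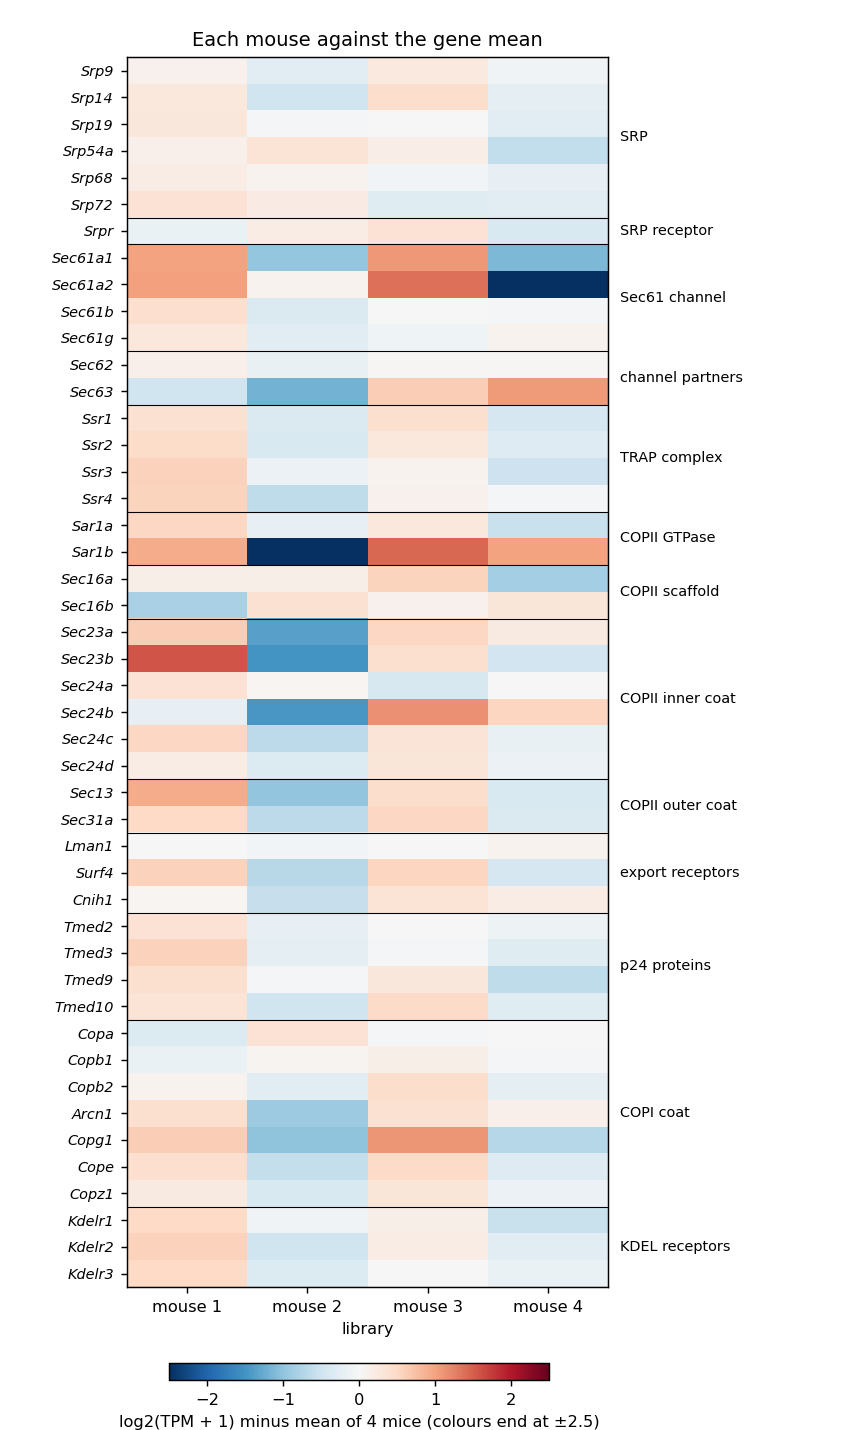
Deviation of each detected secretory gene from its own mean over the 4 mice in log2(TPM + 1), as colors for mice 1 to 4 with genes grouped by role. Mice 1 and 3 are mostly above 0 and mice 2 and 4 mostly below, and colors end at a deviation of 2.5 either way, which Sar1b in mouse 2 passes.

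Further genes of the pathway were read from 4 lists of 70 genes, of which 68 were matched by symbol. Of these 62 had a median above 1 TPM and 57 were above 1 in every mouse, beside 44.2% and 30.1% of all protein-coding genes. All 14 matched ER exit organizers and COPII accessory genes passed the median cutoff. The highest were Creb3l1 (253 TPM), Tfg (211 TPM) and Sec22b (189 TPM), a transcription factor of collagen-secreting bone cells, an exit site protein and a fusion SNARE, and the lowest Klhl12 (1.17 TPM), Mia2 (8.18 TPM) and Creb3l2 (19.2 TPM). Klhl12 is the ubiquitin ligase adaptor that enlarges COPII coats, and Mia3, the procollagen export receptor TANGO1, was at 58.7, 61.9, 52.4 and 43.9 TPM. Of 17 further cargo receptors and p24 proteins, 12 passed, with Ergic3 (325 TPM), Mcfd2 (101 TPM) and Tmed4 (88.1 TPM) highest. Tmed11 and Cnih3 had no count, and Cnih2, Tmed6 and Lman1l had medians below 1 TPM. All 16 COPI accessory genes passed, with the Arf GTPases Arf1 (702 TPM) and Arf4 (699.6 TPM) and the SNARE Use1 (153 TPM) highest and Copg2 (2.38 TPM), Zw10 (4.60 TPM) and Rint1 (5.80 TPM) lowest. In the list of targeting, translocation, signal cleavage and glycosylation genes 20 of 21 passed. The highest were Ddost (667 TPM), Spcs1 (611 TPM) and Ostc (500.5 TPM), of the oligosaccharyltransferase and the signal peptidase, and the lowest Tram2 (3.50 TPM) and Get3 (5.67 TPM) and Srp54b, with 2 counts in mouse 3 and none in the other mice.

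The assignment of reads sets limits for some of these genes. Exonic bases are shared with another annotated gene in 16 of the 47, in 15 of them only with genes on the opposite strand, and 19 have a stretch near-identical to another gene, overlapping genes included. In 9 that gene shares no exonic base with them, and in 6 of these, Srp54a, Arcn1, Srpr, Tmed2, Sec61b and Sec61g, the stretch covers at least 20% of the longest transcript. Neither applies to 24 genes, among them Sec24d, Sec24a, Sec24b, Sar1a, Sar1b, Kdelr1 and Kdelr2. Sec23b has short near-identical stretches in 59 other genes, over 3.85% of its longest transcript. Only the longest transcript of each gene was searched. It has 1 exon for Sec13, Tmed3, Tmed9 and Srp9 and 2 for Sec23b. Copies of other, spliced transcripts of these genes could thus be missed, also for Sec13 and Tmed3, which are among the 24. Surf4 shares 4.39% of its exonic bases with Surf2, which held 2041, 0, 704 and 497 counts, and Kdelr3 shares 4 bases with Ddx17.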

How the data were processed

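RNA-seq counts of MSCs from 4 mice were used, 1 library of 100 sorted cells per mouse. Reads were demultiplexed with bcl2fastq (2.20.0) and mapped with STAR (2.7.10) to GRCm39 by the authors, who counted pairs on the exons of Ensembl genes with featureCounts of Subread (1.6.5), and deposited raw counts. The parameters given include no strand option, so reads of overlapping genes on opposite strands cannot be told apart. The main methods also describe another pipeline, and the description specific to MSCs was taken to apply. All 4 columns of counts were used.

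Python 3.11.15, numpy 2.4.6 and pandas 2.3.3 were used to compute TPM from merged exon lengths of GENCODE M21, an annotation of GRCm38 and hence of another build than the counts. The 4855 genes without a length there were left out. Coordinates are those of GRCm38. Promoter windows come from RefSeq (GRCm38.p6). TMM factors come from edgeR 4.0.16 in R 4.3.3. Near-identical stretches of the longest transcript of each gene were searched with BLAST 2.17.0. Stretches of 100 bases or longer with at least 95% identity were kept. Depth was 22738604 to 43545349 counts, and 3 counts were taken as the detection limit, for counting error only, since PCR copies are not independent molecules.

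Differences between paralogues within a mouse were taken in log2(TPM + 1) and tested with a two-sided exact permutation test of their signs, with Benjamini-Hochberg adjustment over 16 pairs. The code was tested on simulated data. The labels name 4 mice and no batch. Counts in every mouse are given for paralogues, the 5 highest and 5 lowest genes, the 5 most variable and those with near-identical copies or overlapping genes, TPM for the others, and for pathway lists the 3 highest and 3 lowest. Beyond that rule, Mia3 and the genes below the cutoff were named after their values were seen. The members and lists were chosen with earlier results of these data known. Alternatives were other lengths, no length, other denominators, scalings, cutoffs, pseudocounts and summaries, a minimum of 10 counts and leaving out each mouse. Protein sequences were not used here. One of the marker genes checked is not reported here.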

Additional observations from a re-analysis of the deposited data

Results flagged for a closer look

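The 4 mice were searched for a library that stands apart, by the gap to the nearest of the others as a share of the whole range, in 160 values. These were TPM and log2(TPM + 1) of the secretory genes, paralogue differences and shares, and ratios within complexes. They also held summed TPM of role groups and of 8 marker lists, without the sort antigens, and other genes given per mouse. Of the 160 values 4 stood apart, where chance would give about 8. The same genes enter in several forms, so the values are not independent. Sar1b was far lower in mouse 2, at 2.87 in log2(TPM + 1) beside 7.15 to 7.67 in the other mice (share 0.891). The ratio of Sec61b to Sec61a2 was far higher in mouse 4, at 4651 beside 55.04 to 115 (share 0.987), where Sec61a2 had 9 counts. The chondrocyte markers summed to 352 TPM in mouse 1 beside 219 to 229 TPM (share 0.926). The macrophage markers summed to 6.63 TPM in mouse 3 beside 0 to 0.497 TPM (share 0.925), all from Cd68. On the linear TPM scale Sar1b was not apart.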

How the results depend on the processing

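The count of genes with a median above 1 TPM stayed between 45 and 46 under 13 alternatives, and that of genes above 1 TPM in every mouse between 39 (with a cutoff of 5 TPM) and 46 under 12. The median TPM over the genes, 92.7 as reported, was 127 with the length of the longest transcript, 144.7 without the 10 highest genes of each library and 125 with at least 10 counts required in every library. With the longest transcript the ratio of highest to lowest subunit went from 14.7 to 8.74 for COPI and from 10.6 to 14.8 for TRAP. Without a length it was 4.79 for COPI, 2.39 for TRAP, 1.17 for the COPII outer coat, 19.1 for SRP and 29.3 for the Sec61 channel, so these ratios depend on the length correction. The Copz1 minus Copz2 difference became -0.18 with the longest transcript and Sec24c minus Sec24a became -0.24 without a length. Leaving out each mouse gave -0.67 to 0.35 for Sec24b minus Sec24a, and Sar1a minus Sar1b was 1.13 without mouse 2. Of the values for paralogue differences under the alternatives, 185 kept their direction and 4 turned it. Many of these values could hardly turn. Other denominators and scalings multiply both genes of a pair in a mouse by the same factor, and requiring 10 counts leaves the values unchanged. For the 11 pairs with the same direction in 4 of 4 mice, only other lengths or no length could turn it. The count is therefore no measure of how firm the order is. With 4 mice no pair could pass 0.05 under any alternative. Requiring at least 10 counts drops Sec31b, Sec61a2 and Copg2, so their pairs have no value there. No paired analysis was possible because all 4 libraries form 1 group with no second group to pair, and the differences between paralogues are already taken within a mouse. Depth limits Sec31b, with no counts, and Sec61a2 in mouse 4, with 9 counts.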
